A study of Mus musculus with 10 samples.

Results

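The genes that encode subunits of the ATP-dependent chromatin remodelers were examined for accessible sites in mouse embryo fibroblasts. The set held 45 of the 21938 protein-coding genes of the annotation. It was chosen by name: 25 genes of the BAF family, 6 of the ISWI family, 9 of the CHD family and 5 of the INO80 family. By textbook knowledge 40 of them encode ubiquitous subunits. The other 5, Actl6b, Dpf1, Dpf3, Smarcd3 and Chd5, encode forms used mainly in neurons or in muscle. No measured value was part of the rule, but earlier results of these data were known when members and classes were chosen.

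The accessible sites came from ATAC-seq, in which the Tn5 transposase cuts open chromatin and the cut fragments are sequenced. The cells were immortalized mouse embryo fibroblasts (iMEF), a single clone, in which Cre-ER driven by the CAGG promoter had deleted exon 4 of both floxed Ash2l alleles. All groups, the untreated one included, carried this deletion and lived on a lentiviral FKBP12F36V fusion of human ASH2L, a subunit of the KMT2 complexes that methylate histone H3 at promoters. The degrader dTAG-13 was given for 30 min, 4 h, 8 h or 24 h, and with the untreated cells, which by the methods received ethanol, this made 5 groups of 2 replicates. Sample titles call the untreated group WT, although it was not wild type at Ash2l. The 10 libraries are represented here by 1 pooled list of 153924 sites, each given as a chromosome, a start and an end. The list has no read count, height or value per library. Depth is therefore unknown, no value below carries a replicate error, and no comparison between time points was made from it. A listed site was called in the study as a whole, and whether it was open in untreated cells, after dTAG-13 or in both cannot be told apart.

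Remodelers use the energy of ATP to slide, eject or exchange nucleosomes. BAF and its relative PBAF are built from core subunits around 1 ATPase, BRG1 or BRM, and open chromatin at enhancers and promoters, whereas ISWI motors mainly space nucleosomes, the CHD4 motor acts in the deacetylase complex NuRD, and the INO80 family moves the histone variant H2A.Z. Several BAF positions can be filled by alternative paralogs: as neural progenitors become neurons, BAF53A and BAF45A or BAF45D give way to BAF53B and BAF45B or BAF45C, and BAF60C is the heart and muscle form of BAF60.

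All 45 genes had a site within 1 kb of an annotated start, in the mm10 (GRCm38) build. This was true of 40 of 40 ubiquitous genes and of 5 of 5 neural or muscle paralogs, so the presence of a site did not separate the classes. Over all protein-coding genes 70.8% had such a site. The share moved with base composition. CpG-rich starts (a window of 500 bp with over 55% GC, in which CpG reached more than 0.75 of the number expected from base content) had a site in 96.5% of coding genes, intermediate starts in 67.5% and CpG-poor starts in 21.9%. Of the remodeler genes 43 were CpG-rich, 2 were intermediate (Ruvbl2 and Smarca1) and 0 were poor. Their full count therefore stands close to the 96.5% of CpG-rich genes at large.

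The promoters of the exchanged paralogs are printed here, since the ubiquitous and tissue-restricted forms are the genes compared. Each is the RefSeq window (GRCm38.p6) from 250 bases before to 50 bases after a listed start, 5′ to 3′ on the strand of the gene. Capitals mark matches, on either strand, to 10 short motifs that are spelled out below. The first pair encodes the actin-related subunit, BAF53A from Actl6a (chr3:32708296-32708595, plus strand) and the neuronal BAF53B from Actl6b (chr5:137553296-137553595, plus strand). Both windows lay wholly in a listed site.
Actl6a: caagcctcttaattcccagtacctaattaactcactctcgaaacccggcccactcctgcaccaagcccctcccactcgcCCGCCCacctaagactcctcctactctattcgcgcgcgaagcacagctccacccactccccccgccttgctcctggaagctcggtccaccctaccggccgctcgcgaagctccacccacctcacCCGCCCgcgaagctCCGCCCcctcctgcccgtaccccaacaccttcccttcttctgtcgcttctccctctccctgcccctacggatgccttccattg
Actl6b: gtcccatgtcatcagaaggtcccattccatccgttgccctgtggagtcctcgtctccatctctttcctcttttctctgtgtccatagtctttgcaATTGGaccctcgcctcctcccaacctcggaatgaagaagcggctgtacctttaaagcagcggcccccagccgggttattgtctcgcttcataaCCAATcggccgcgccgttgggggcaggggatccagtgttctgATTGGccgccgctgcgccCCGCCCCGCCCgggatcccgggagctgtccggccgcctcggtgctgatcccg

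The BAF45 position is filled in canonical BAF by BAF45D from Dpf2 (chr19:5912822-5913121, minus strand), by the neuronal BAF45B from Dpf1 (chr7:29303755-29304054, plus strand) and by BAF45C from Dpf3 (chr12:83487687-83487986, minus strand), which serves neurons and muscle. Dpf2 and Dpf3 had less GC (58.7% and 55.3%) than Dpf1 (74%).
Dpf2: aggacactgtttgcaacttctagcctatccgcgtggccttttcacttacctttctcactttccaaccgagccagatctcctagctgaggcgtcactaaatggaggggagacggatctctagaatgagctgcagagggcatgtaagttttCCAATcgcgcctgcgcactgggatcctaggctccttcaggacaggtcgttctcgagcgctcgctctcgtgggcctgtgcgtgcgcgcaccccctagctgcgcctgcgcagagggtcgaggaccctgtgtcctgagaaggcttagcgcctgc
Dpf1: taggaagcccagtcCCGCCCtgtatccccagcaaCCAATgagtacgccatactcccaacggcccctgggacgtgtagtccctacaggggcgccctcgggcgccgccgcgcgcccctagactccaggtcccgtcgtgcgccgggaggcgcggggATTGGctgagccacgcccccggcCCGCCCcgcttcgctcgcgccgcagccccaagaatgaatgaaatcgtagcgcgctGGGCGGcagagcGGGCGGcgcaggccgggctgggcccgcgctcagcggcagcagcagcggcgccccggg
Dpf3: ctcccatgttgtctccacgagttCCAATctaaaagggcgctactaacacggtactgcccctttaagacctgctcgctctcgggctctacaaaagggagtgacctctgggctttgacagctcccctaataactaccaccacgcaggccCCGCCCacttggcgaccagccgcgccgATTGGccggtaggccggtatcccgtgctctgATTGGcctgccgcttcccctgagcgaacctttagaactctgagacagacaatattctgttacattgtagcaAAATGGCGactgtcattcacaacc

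The BAF60 position is filled by BAF60A from Smarcd1 (chr15:99702037-99702336, plus strand), by BAF60B from Smarcd2, which is also ubiquitous, or by the heart and muscle form BAF60C from Smarcd3 (chr5:24601953-24602252, minus strand). The Smarcd3 window is that of an internal start, not of the outermost 5′ end. So is the Actl6a window above, since the outermost 5′ end of Actl6a lay 1766 bp from the nearest site. The other printed starts, that of Smarca1 below among them, need not match the outermost annotated 5′ end either.
Smarcd1: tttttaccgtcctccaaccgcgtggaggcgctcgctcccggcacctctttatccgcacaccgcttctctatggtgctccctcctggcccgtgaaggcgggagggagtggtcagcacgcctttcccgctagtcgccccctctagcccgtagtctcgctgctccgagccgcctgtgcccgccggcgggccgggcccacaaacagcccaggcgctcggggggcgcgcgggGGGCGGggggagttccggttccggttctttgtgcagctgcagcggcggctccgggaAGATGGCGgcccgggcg
Smarcd3: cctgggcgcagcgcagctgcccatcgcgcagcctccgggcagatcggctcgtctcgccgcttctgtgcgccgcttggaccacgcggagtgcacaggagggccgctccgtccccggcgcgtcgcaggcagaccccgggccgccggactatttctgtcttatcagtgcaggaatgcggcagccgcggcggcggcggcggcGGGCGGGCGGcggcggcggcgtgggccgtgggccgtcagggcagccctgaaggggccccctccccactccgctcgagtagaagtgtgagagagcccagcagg

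The window of Smarca1, which encodes the ISWI motor SNF2L (chrX:47892564-47892863, minus strand), is shown as the exception. Its RefSeq start lay 75 bp outside the nearest site and it held 9 CpG dinucleotides, against a median of 30.5 over the 36 members that the RefSeq table lists.
Smarca1: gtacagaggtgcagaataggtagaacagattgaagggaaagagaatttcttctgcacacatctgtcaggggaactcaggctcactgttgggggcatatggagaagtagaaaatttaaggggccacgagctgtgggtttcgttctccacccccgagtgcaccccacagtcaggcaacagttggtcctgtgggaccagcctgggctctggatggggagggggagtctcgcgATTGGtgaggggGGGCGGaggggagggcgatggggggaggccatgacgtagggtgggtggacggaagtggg

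Of the 36 remodeler promoters with a RefSeq window, 34 (94.4%) had their start inside a site, against 47% of 32851 promoters in the table. The 2 shares are not counted alike. For a member with several RefSeq starts, a start inside a site was taken first, which could matter for Chd9 (1 of 2 inside). The 47% counts every listed start and includes CpG-poor promoters. For CpG-rich coding genes, 86.7% of outermost 5′ ends lay inside a site. The median GC content of the 36 promoters was 66.8%, against 52.7% over all promoters, and the median count of CpG dinucleotides was 30.5 against 7. The 5 tissue-restricted promoters had a median GC of 70.7% and 32 CpG, and the 31 ubiquitous ones 66% and 30. Smarcd2, for the core subunit BAF60B, was the other promoter whose listed start was outside a site, at 4014 bp, and it held 4 CpG. That start is not the 5′ end of the gene in the GENCODE annotation, where Smarcd2 had a site of 1861 bp.

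The GC box (GGGCGG, bound by SP and KLF factors) was found in 35 of the 36 promoters (97.2%), including 5 of 5 tissue-restricted ones. Dpf2 was the exception. All promoters held it in 35.7% of cases, and promoters with a start inside a site in 62.2%. The second of these is the nearer background, since 34 of the 36 members have their start inside a site. The other motifs are given with both shares, all promoters first. The CCAAT box (CCAAT) was found in 12 members (33.3%, against 37.4% and 36.7%). It was found in 3 of 5 tissue-restricted windows, those of Actl6b, Dpf1 and Dpf3, and in 9 of 31 ubiquitous ones. The YY1 core (ANATGGCG) was found in 4 members (11.1%, against 3.65% and 6.23%), with Smarcd1 and Dpf3 among them. The EGR motif (GCGNGGGCG, which can overlap a GC box) was found in 5 (13.9%, against 5.55% and 10.7%). The ETS motif (CCGGAAG) was found in 4 (11.1%), above the 8.86% of all promoters and below the 15.9% of those with a start inside a site. The E-box (CACGTG) was found in 4 (11.1%, against 7.15% and 9.7%) and the NRF1 core (CGCATGCG) in 2 (5.56%, against 1.87% and 3.48%). The TATA box (TATAAA) was found in 2 members (5.56%, against 13.6% and 7.27%), the AP-1 motif (TGANTCA) in 2 (5.56%, against 7.81% and 6.25%) and the CRE (TGACGTCA) in 0 (against 1.79% and 2.99%). With so few members per motif, only the GC box stood far from both shares. The GC box is itself made of G and C, and the members' windows had a median GC of 66.8%, against 52.7% over all promoters. Neither share was matched for base composition, and its part in the GC box count was not tested. The RE1 element, which the neuronal repressor REST binds, was in 0 of 36 windows. In a wider search of 1 kb around the 5′ ends it was in 0 of 45 members and in 0.666% of coding genes. These matches are letters in a window, and binding was not measured.

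**Figure D1:**
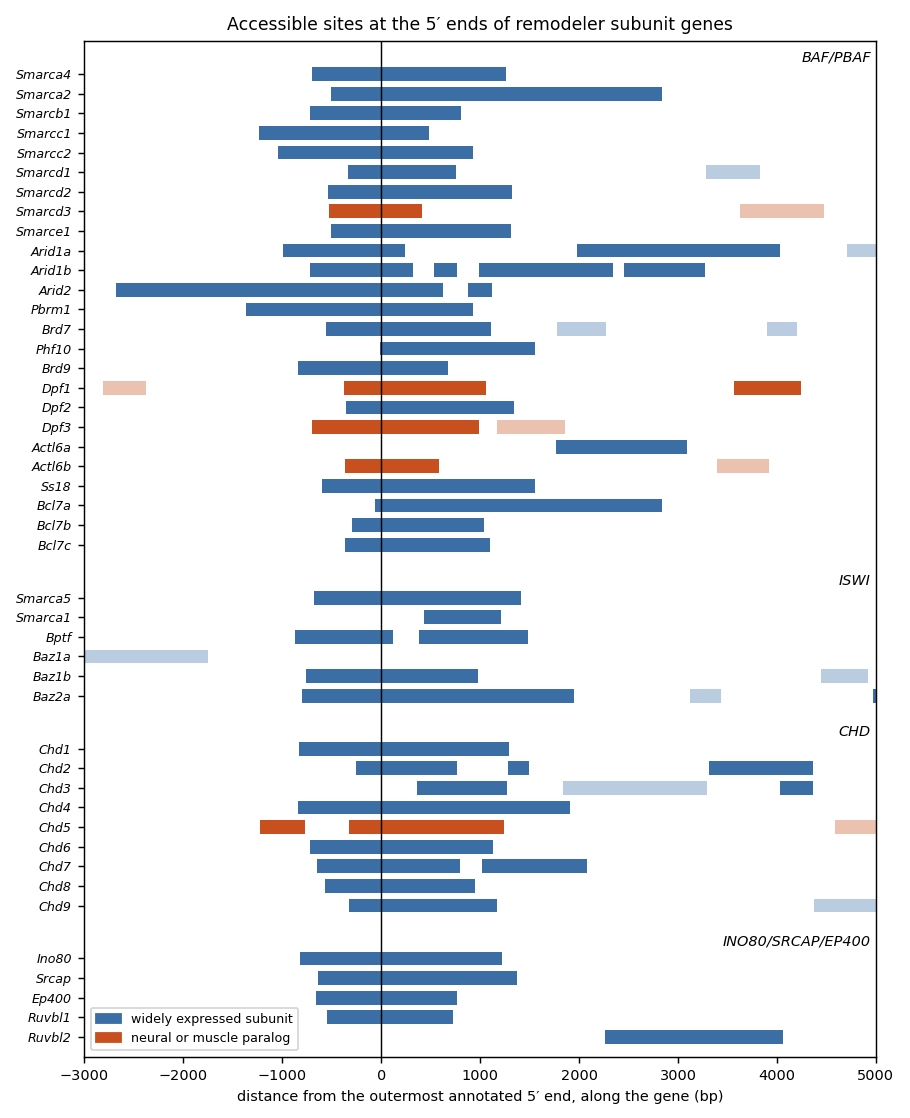
Extent of the listed sites around the outermost 5′ end of each remodeler gene, in bp along the direction of transcription (x axis), with 1 row per gene. Dark bars are sites within 1 kb of a start and pale bars are other sites in the body or flank. The view is cut to the first kilobases on either side. In 40 of 45 genes a dark bar covers the 5′ end, and the promoter sites of Baz1a lie outside the view.

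The outermost annotated 5′ end lay inside a site in 40 of 45 members (88.9%), against 58.5% of coding genes. The share was 86.7% for CpG-rich coding genes and 82.6% for coding genes with a promoter site, so the members stood close to genes of like composition. All 5 tissue-restricted genes were among them. The exceptions were Actl6a (1766 bp from the nearest site), Baz1a (1749 bp), Ruvbl2 (2266 bp), Smarca1 (436 bp) and Chd3 (359 bp). In Actl6a, Baz1a, Ruvbl2 and Smarca1 a downstream start was inside a site. Chd3, for a NuRD motor, differed: 0 of its 9 starts lay inside a site, although 3 sites fell within 1 kb of them. Over the whole set 194 of 368 annotated starts (52.7%) were inside a site, close to the 51% of coding genes. The share was 70.6% (24 of 34) for the tissue-restricted genes and 50.9% (170 of 334) for the ubiquitous ones. These shares pool the starts of few genes, and the tissue-restricted genes differed. Inside a site were 6 of 6 starts in Actl6b, 8 of 10 in Dpf1 and 6 of 9 in Smarcd3, but 2 of 5 in Dpf3 and 2 of 4 in Chd5. Smarca2 alone gave 42 of the ubiquitous starts. The site over the 5′ end reached a median of 644 bp upstream and 1048 bp downstream. It was longer on the downstream side in 31 of 40 members (77.5%), and in 71.1% of coding genes.

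The widest promoter site of each gene had a median of 1737 bp, with quartiles of 1436 and 2038 bp. Coding genes with a promoter site had a median of 1412 bp, and CpG-rich ones 1517 bp. The median member stood at percentile 74.1 of coding genes with a promoter site, of any base composition, and 35 of 45 were wider than their median. The widest of several sites is taken, and members had a median of 7 annotated starts, against 3 in coding genes. With the outermost 5′ end as the only start, the median was 1619 bp over 42 members. The part of the number of starts in the width was not tested. The widest site reached 1 kb in 42 of 45 members, against 81.1% of coding genes with a promoter site. The 40 ubiquitous genes had a median of 1810 bp and the 5 tissue-restricted genes 1566 bp, with a range of 956 to 1863 bp that lies inside the ubiquitous range of 780 to 3348 bp. By family, the medians were 1916 bp for ISWI, 1799 bp for INO80, 1697 bp for BAF and 1566 bp for CHD. A second list of 45 remodeler subunits outside the set, which also had a promoter site in 45 of 45 genes, had a median of 1625 bp. Width in a pooled list also moves with depth and with the joining of sites, and their part in these values was not tested.

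**Figure D2:**
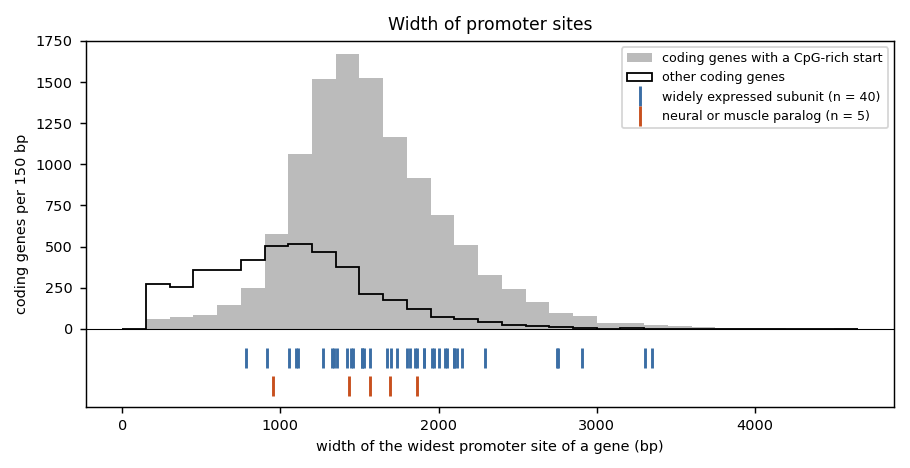
Histogram of the width of the widest promoter site in bp (x axis, bins of 150 bp; y axis, number of genes) for coding genes with a CpG-rich start (grey) and other coding genes (outline), with 1 tick per remodeler gene below. The median of the 45 members is 1737 bp and that of the coding genes 1412 bp, and the tissue-restricted genes lie between 956 and 1863 bp.

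The BAF motors had wide promoter sites. Smarca2, which encodes BRM, had the widest of the set at 3348 bp (chr19:26604539-26607886), from 511 bp before the 5′ end to 2836 bp after it. Smarca4, which encodes BRG1, had 1 promoter site of 1961 bp (chr9:21615467-21617427). Arid2, the DNA-binding subunit that defines PBAF, followed Smarca2 with 3308 bp (chr15:96284837-96288144). That site reached 2681 bp upstream of the 5′ end, which makes it 1 of the members with the longer side upstream. Bcl7a came next with 2910 bp, nearly all of it downstream (2843 bp). Among the other PBAF subunits Pbrm1, the bromodomain protein BAF180, had 2295 bp, Brd7 1672 bp and Phf10 1565 bp. Of the subunits of canonical BAF, Arid1a had 2053 bp and Arid1b 1360 bp. Brd9, which marks non-canonical BAF, had 1516 bp.

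The remaining BAF genes were narrower than Bcl7a. Smarcc1 and Smarcc2, the core scaffolds BAF155 and BAF170, had 1906 and 1971 bp. The core subunits Smarcb1 (SNF5), Smarce1 (BAF57) and Smarcd2 (BAF60B) had 1529, 1820 and 1861 bp. Ss18 had 2151 bp, Bcl7b 1338 bp and Bcl7c 1460 bp. When the 25 BAF genes are ranked by their widest promoter site, the neuronal Actl6b was the narrowest. Single promoter sites of other BAF genes were narrower than that of Actl6b.

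Both ISWI motors slide nucleosomes, and their promoter sites differed in width and place. Smarca5, which encodes SNF2H, had a site of 2097 bp (chr8:80738082-80740178) over its 5′ end. Smarca1, which encodes SNF2L, had the narrowest widest site of the set, 780 bp (chrX:47891759-47892538), and it began 436 bp inside the gene. Smarca1 is also the only member on the X chromosome, where the list held 20.9 sites per Mb against a median of 58.6 over the autosomes. The part of this in the width was not tested. The partner subunits were Baz2a of NoRC (2752 bp), Baz1a of ACF (2096 bp), Baz1b of WICH (1737 bp) and Bptf of NURF (1110 bp).

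In the CHD family Chd4, the main NuRD motor, had 1 promoter site of 2756 bp (chr6:125095136-125097891). Chd3, the other ubiquitous NuRD motor, had 3 sites of at most 913 bp, all inside the gene. Chd1, which binds methylated H3K4, had 2115 bp, and Chd2 had 1057 bp. The remaining members had 1853 bp (Chd6), 1448 bp (Chd7), 1517 bp (Chd8) and 1907 bp (Chd9). In the INO80 family the motors Ino80, Srcap and Ep400 had 2038, 2005 and 1418 bp. The AAA ATPases Ruvbl1 and Ruvbl2, which are shared by these complexes, had 1268 and 1799 bp. The 16 catalytic ATPases together had a median of 1880 bp.

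The tissue-restricted paralogs were compared position by position with the ubiquitous form. The order was not the same at each position. At the BAF53 position Actl6b had 956 bp (percentile 16.9 of coding genes; chr5:137553148-137554103) and Actl6a had 1326 bp (percentile 42.5; chr3:32708064-32709389), so the neuronal form was narrower. At the BAF45 position Dpf2 had 1697 bp (chr19:5911672-5913368), Dpf3 had 1690 bp (chr12:83486725-83488414) and Dpf1 had 1436 bp (chr7:29303573-29305008), so Dpf3 and Dpf2 were within 7 bp of each other. Phf10, the BAF45A of PBAF, had 1565 bp. At the BAF60 position the muscle form Smarcd3 had 1863 bp (percentile 80.6) and the ubiquitous forms Smarcd1 and Smarcd2 had 1096 bp (percentile 24.3; chr15:99701792-99702887) and 1861 bp (percentile 80.5). By its widest site the muscle form was therefore wider than Smarcd1 and about as wide as Smarcd2. That site lay over internal starts, however. The site at the outermost 5′ end of Smarcd3 measured 936 bp, narrower than the sites over the 5′ ends of Smarcd1 and Smarcd2. For NuRD the neuronal motor Chd5 had 1566 bp (chr4:152338322-152339887), wider than Chd3 and narrower than Chd4. With a single list no error can be put on these differences.

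**Figure D3:**
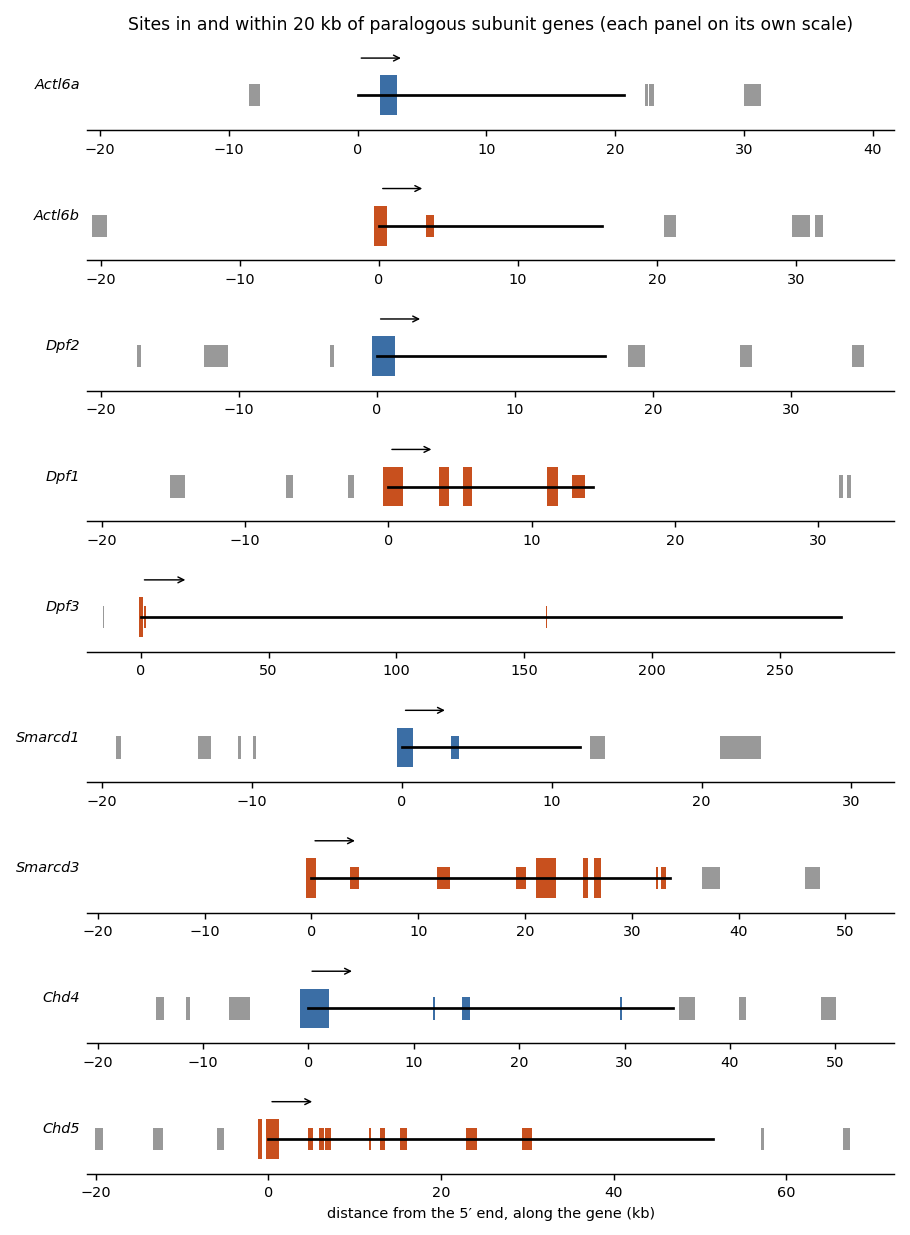
Maps of tissue-restricted genes and their ubiquitous paralogs, 1 panel per gene, each on its own scale in kb from the 5′ end. The black line is the gene and the arrow its direction. Tall bars are sites within 1 kb of a start, short bars other sites in the body and grey bars sites in the flank. Counted by the middle of the site, Actl6a and Dpf2 show 1 site in the body, Smarcd3 shows 8 and Chd5 shows 9. Blue marks the ubiquitous and orange the tissue-restricted genes.

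The number of promoter sites differed from the background less than a first count shows. At least 2 promoter sites were found in 22 of 45 members (48.9%), against 21.7% of coding genes. Members had a median of 7 annotated starts, against 3, and more starts give more windows. Among genes with 7 or more starts, 13 of 24 members had at least 2 promoter sites, against 48.8% of such coding genes. The count was 7 of 9 in the CHD family, 5 of 6 in ISWI, 10 of 25 in BAF and 0 of 5 in INO80. Of the tissue-restricted genes 3 of 5 had at least 2, namely Dpf1, Smarcd3 and Chd5. Summed over their promoter sites, Smarca2 covered 6445 bp, Arid2 5192 bp, Chd9 4646 bp, Chd2 4367 bp, Arid1b 4132 bp and Baz2a 4072 bp.

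In 11 members at least 2 listed sites covered a start, though not always far apart. In Arid1b all such sites lay side by side near the 5′ end. The clearest case of distant sites was Smarca2. Its second site, of 1190 bp (chr19:26747356-26748545), lay 142306 bp into the gene, in intron 27, and covered 16 of its 42 annotated starts. A second start region of Smarcd3 carried its widest site. There the outermost 5′ end had a site of 936 bp (chr5:24624001-24624936), and the site of 1863 bp (chr5:24601525-24603387) lay 21024 bp downstream over 4 other starts. The neuronal Dpf1 had 4 promoter sites, which began 378 bp before and 3562, 5176 and 11068 bp after its 5′ end, and which measured 1436, 682, 644 and 790 bp. Chd9 had internal promoter sites at 79349 bp (1907 bp wide) and at 126241 bp (1247 bp wide), and Chd8 had 1 at 12756 bp (938 bp wide). In Smarca5 a site of 616 bp lay over an internal start 28147 bp from the 5′ end. Which of these starts the fibroblasts used was not measured.

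A promoter site also covered the start of another protein-coding gene in 5 of 45 members, close to the 13.1% of coding genes. The pairs were Baz1a with Gm20403, Brd9 with Trip13, Pbrm1 with Gnl3, Ruvbl2 with Gys1 and Smarcc1 with Dhx30. At these 5 genes the site cannot be assigned to 1 of the genes.

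Beyond the promoter windows, 36 of 45 members had a site in the gene body, against 51.3% of coding genes. The genes were also longer, with a median of 49.2 kb against 17.4 kb. Above 20 kb the shares came close to coding genes of like length: 73.3% against 71.1% for 15 members of 20 to 50 kb, and 88.9% against 91.3% for 9 members of 50 to 100 kb. All 10 members of 100 to 200 kb had one, against 96.3%, and all 3 longer ones, against 96.9%. For the 8 members under 20 kb the share was 50%, against 24.5%. The 9 without one were Actl6a, Bcl7b, Brd9, Chd8, Dpf2, Ruvbl2, Smarca5, Smarcd2 and Smarce1. None of the tissue-restricted genes was among them, although Actl6b and Dpf1 had only 1 such site each. Of their ubiquitous paralogs, Actl6a, Dpf2 and Smarcd2 were among them, and Phf10, Smarcd1, Chd3 and Chd4 were not. The most sites in a body, promoter sites included, were in Arid1b (46 in 353 kb), Chd2 (18 in 115 kb) and Chd9 (16 in 226 kb).

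**Figure D4:**
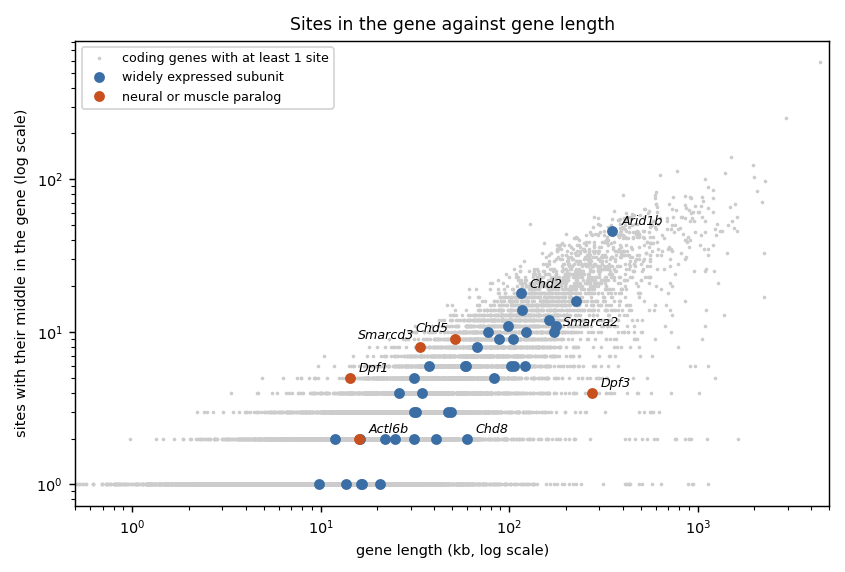
Sites with their middle in the gene body (y axis, log scale) against gene length in kb (x axis, log scale) for the remodeler genes over the protein-coding genes. Genes with 0 sites, Brd9 among them, are not drawn. Dpf1, Smarcd3 and Chd5 lie high for their length and Dpf3 lies low.

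Per 100 kb of gene body, promoter sites included, members had a median of 9.1 sites (quartiles 6.09 and 12.3). Coding genes had 7.4, or 10.1 among those with a promoter site. The median of the members was 5.3 when sites narrower than the median width of the list were dropped. The median was 8.38 for the ubiquitous and 17.5 for the tissue-restricted genes. The 3 highest densities in the set were all in tissue-restricted genes: Dpf1 with 35.0 (5 sites in 14.3 kb), Smarcd3 with 23.8 (8 in 33.6 kb) and Chd5 with 17.5 (9 in 51.5 kb). Outside promoter windows Dpf1 had only 1 of its sites, Smarcd3 5 and Chd5 8. The ubiquitous Smarcd1 (16.9), Brd7 (16) and Baz2a (15.9) came close behind Chd5. Actl6b had 12.4 (2 in 16.1 kb). Among coding genes of like length, 2.08% were denser than Smarcd3, 5.41% than Chd5, 7.94% than Dpf1 and 36.8% than Actl6b. Dpf3 went the other way, with 1.46 (4 sites in 274 kb), and 89.9% of coding genes over 200 kb were denser. The lowest of the ubiquitous genes were Brd9 at 0, whose promoter site has its middle upstream of the gene, and Chd8 at 3.35. For the paralogs the densities were 4.84 in Actl6a, 6.06 in Dpf2, 12.3 in Phf10, 16.9 in Smarcd1, 10.2 in Smarcd2, 11.6 in Chd4 and 15.3 in Chd3. Chd3 thus came near Chd5, and Phf10 near Actl6b. In short genes a single site moves this value strongly, and the 5 genes were chosen, so no test was made.

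The body sites of the tissue-restricted genes were placed as follows. Actl6b had 1 site of 531 bp in intron 4 (chr5:137556910-137557440). In Chd5 all 8 sites outside the promoter were intronic, 3 of them in intron 1, and they measured 280 to 1186 bp. Dpf3 had sites of 687 bp (chr12:83485862-83486548) and 198 bp in intron 1, and 1 of 323 bp 158542 bp from the 5′ end, with no site in the stretch between. The 5 sites of Smarcd3 outside its promoter windows measured 237 to 1169 bp, and 3 of them lay between its outer and inner start regions. The site of Dpf1 was in its last exon (910 bp, chr7:29316792-29317701). Dpf2 and Actl6a had none, Smarcd1 had 1 of 546 bp in exon 6, and Chd4 had 3 in introns, of 204 to 762 bp.

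Over the set there were 216 body sites outside promoter windows. Of these 193 (89.4%) were intronic, against 85.8% in coding genes, and 11 (5.09%) had their middle in an exon, against 5.03%. The first intron held 34 (15.7%), against 24.4%. These shares pool the sites of few genes: Arid1b alone gave 42 of the 216, with 4 in its first intron. The part of exon number and of promoter windows in the first intron share was not tested. The last exon held 6 (2.78%, against 3.48%), of which 3 were in exon 30 of Baz2a and 1 each in Chd1, Chd2 and Dpf1. Within 20 kb outside the gene all 45 members had a site, against 83.9% of coding genes, with a median of 4 sites per member and of 3 per coding gene. Among CpG-rich coding genes 11074 of 11680 had one, and among coding genes with a promoter site 14889 of 15530. The median was 4 in both, so the members stood close to these genes. Of the members, Bptf and Baz1a had the most, 9 each, and Dpf3 and Smarca2 the fewest, 1 each. Of the 207 flanking sites, 64 lay within 1 kb of a start of another coding gene, so these cannot be assigned to the remodeler gene. Chromosomes also differed in how densely sites were listed: chromosome 15, with Arid2 and Smarcd1, had 96.4 per Mb and chromosome 10, with Baz2a, Smarcb1 and Smarcc2, had 82.0. The median over the autosomes was 58.6. The part of these densities in the widths and counts of sites at these genes was not tested.

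Marker genes were read in the same way to set the tissue-restricted forms in context. All 15 fibroblast markers had a site within 1 kb of a start, and the 5′ end lay inside one in 80% of them. Of 15 neuron markers 14 had one, all but Dcx, and 66.7% of 5′ ends lay inside a site. Of 15 muscle markers 8 had one and 0 of 15 had the 5′ end inside. Of the myogenic factor genes Myod1, Myf5 and Myog had none, and Myf6 had 1 of 929 bp. The median width of the widest site was 1886 bp for the fibroblast, 1206 bp for the neuron and 708 bp for the muscle markers. The median of 1566 bp of the tissue-restricted remodeler genes stood between those of the neuron and the fibroblast markers. So did those of the ubiquitous members (1810 bp), CpG-rich coding genes (1517 bp) and coding genes with a promoter site (1412 bp). This place is therefore not particular to the tissue-restricted genes. All 5 of them were CpG-rich, as were 7 of 15 fibroblast, 7 of 15 neuron and 4 of 15 muscle markers. The part of base composition in the order of the widths was not tested. Expression was not analysed here for any of these genes.

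**Figure D5:**
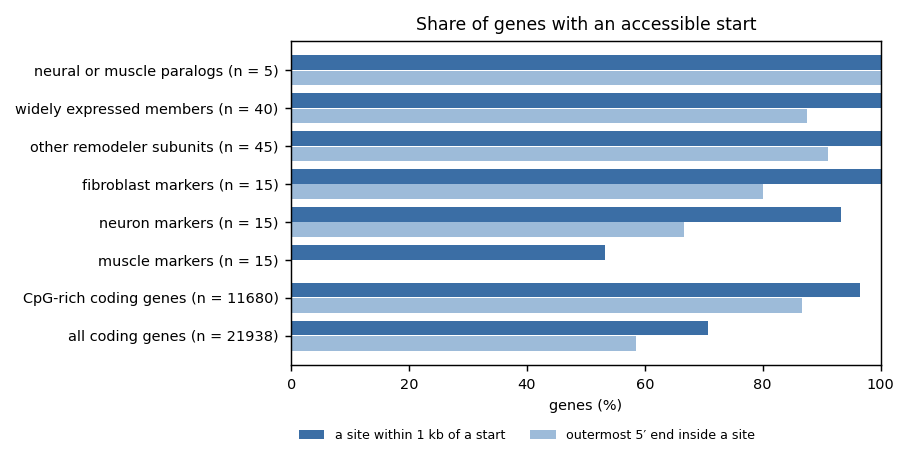
Share of genes in percent (x axis, from 0 to 100) with a site within 1 kb of a start and with the outermost 5′ end inside a site (dark and pale bars), for the remodeler genes, marker lists and coding genes. The remodeler classes reach 100% for the first measure, and the muscle markers have 0 of 15 for the second.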

How the data were processed

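The deposited table gives only positions (chromosome, start and end), a unit with no scale. According to their methods, the authors trimmed reads with Trim Galore, aligned them to mm10 with BWA, filtered with SAMtools following ENCODE advice, merged replicates with Picard, called narrow peaks with MACS2 and tested accessibility with DESeq2. How sites of different samples were joined is not given in the sources used here. The edges, width and number of sites depend on that step, on the peak threshold and on depth.

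Starts were taken as 0-based and are printed 1-based. Of the 153924 sites, 0 ended past a chromosome and 242 on other sequences were left out. Starts and genes were those of GENCODE M21. A promoter site overlapped the 1 kb either side of any annotated start by at least 1 bp, a body site had its middle in the gene, and a flanking site lay within 20 kb outside it. Starts were called CpG-poor where no window held over 0.48 of the CpG expected from base content. Exons and introns were numbered in 1 transcript per gene. Promoter windows came from the RefSeq table, which matched 36 of 45 members. It listed none for Arid2, Baz1a, Bcl7a, Chd1, Chd2, Chd3, Chd7, Smarce1 and Ss18.

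Members, classes, marker lists and alternatives were chosen with earlier results of these data known. Named were the tissue-restricted genes and their paralogs, the catalytic ATPases, genes at the extremes of width, site number and density, those with most promoter sequence, and those sharing a site. Smarca1 was also tried among the tissue-restricted genes. No test between groups was made, since no value per library was analysed here. The code was tested on simulated data. Python 3.11.15, NumPy 2.4.6 and Matplotlib 3.10.9 were used.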

Additional observations from a re-analysis of the deposited data

How the results depend on the processing

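Of 40 alternatives (other windows, wider or merged sites, other start sets, other flanks, Smarca1 moved between classes), 39 gave values that passed as close to those reported. The rule was loose for counts: 30 members with a body site in place of 36 passed it. Some alternatives could not differ. Where all 45 members had a site, wider windows, wider flanks or merged sites had to give 45 again. When sites narrower than the median width were dropped, the median density fell from 9.1 to 5.3 sites per 100 kb, since fewer sites enter. With the outermost 5′ end as the only start, 42 of 45 members kept a site within 1 kb, all but Actl6a, Baz1a and Ruvbl2. With RefSeq starts, an alternative chosen after seeing the data, 35 of 36 had one. Body sites outside promoter windows were found in 30 to 37 members. No paired analysis was possible because no value per library was analysed here. Unknown depth limits statements on weak or unlisted sites.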
